A study of Mus musculus with 14 samples.

Results

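Mbp, Pmp22, Mag, Prx, Mal, Egr2, Pllp and Sox10 are 8 genes of the myelinating Schwann cell, and they were followed here in whole paws of newborn mice. The members were the rows of the deposited count table whose Ensembl gene ID carries one of these symbols in the annotation, which gave 8 rows of 56691, and all 8 passed the filter on low counts that left 21619 genes for testing. The rule uses gene names and no measured value, although the genes were picked with earlier results of these data known. Mbp (ENSMUSG00000041607.18) lies on chromosome 18, Pmp22 (ENSMUSG00000018217.13) on 11, Mag (ENSMUSG00000036634.16) and Prx (ENSMUSG00000053198.15) on 7, Mal (ENSMUSG00000027375.15) on 2, Egr2 (ENSMUSG00000037868.16) on 10, Pllp (ENSMUSG00000031775.6) on 8 and Sox10 (ENSMUSG00000033006.11) on 15. Ribosomal RNA-depleted total RNA was sequenced from 14 paw samples in 4 groups: Krt9-/- mice on postnatal day 3 (P3, n = 3), wild-type (WT) mice on P3 (n = 5), Krt9-/- mice on postnatal day 0 (P0, n = 2) and WT mice on P0 (n = 4). Krt9 encodes the keratin of palm and sole epidermis, and the Krt9-/- mice, called Krt9 null here, carry no other allele or treatment that the labels give. The labels also give no strain, the extent of the Krt9 deletion or whether paws were pooled. They do give a litter number: P3 WT replicates 2 and 3 share litter 2, and replicate 1 of both genotypes on P0 shares litter 1. Other replicates of a group come from different litters, and where paws share a litter the p-values partly measure the spread within it.

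Libraries held 28947715 to 41004173 counts. Krt9 itself, the targeted gene, stood at 25.2, 7.74 and 11.5 CPM (read counts scaled to library size) in the P3 libraries labelled Krt9 null and at 32.9, 83.0, 39.8, 74.0 and 39.8 CPM in P3 WT libraries. On P0 it stood at 6.08 and 5.32 CPM in the libraries labelled Krt9 null and at 2.09, 4.59, 7.61 and 5.59 CPM in WT libraries, so that the groups did not overlap on P3, where 1.27% of all genes lay lower in Krt9 null without overlap, and overlapped on P0. The P3 difference was not called by edgeR (log2 -1.86, SE 0.49, adjusted p = 0.694) and was called by DESeq2 (adjusted p = 0.00821). The genotype of the P0 libraries is therefore taken from the labels alone. P0 WT replicate 4 is labelled female but had 0.181 CPM of the female-specific Xist, against 797 CPM in the other P0 WT female, and also 0.155 CPM of the Y-linked Ddx3y, against 117 and 122 CPM in the P0 WT males. The deposited columns form 2 alphabetical runs, called column block A (8 libraries) and column block B (6 libraries). Each group has libraries in both blocks, and the blocks are inferred from column names, not from a batch that the labels state.

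In peripheral nerve, a Schwann cell that contacts an axon of large calibre wraps it in many layers of membrane that then become compact. The transcription factor Sox10 is present through the whole lineage, turns on Egr2 (also called Krox20) when myelination starts, and acts with it on the genes of the myelin proteins. In mouse limb nerves this programme is already running at birth and goes on through the first weeks of life. Bulk RNA of a whole paw mixes these cells with skin, bone, muscle and vessels, and fewer Schwann cells and less RNA per Schwann cell cannot be told apart.

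Reference promoters of RefSeq (build GRCm38.p6) were found for 6 of the 8 members. The 250 bases before the transcription start are shown for 3 of them. Mal and Mag are shown because their P3 WT values all lay above their P0 WT values, and Prx because its values overlapped between the days although it varied most closely with Mbp. Capitals mark matches to GTGGGNG, the core letters that EGR proteins bind, or to ACAAAG, one of the SOX core sequences searched, in either orientation. The other SOX core searched, ACAATG, was absent from all 3 windows. The Mal window, chr2:127656696-127656945 on the minus strand, held no match.
Mal: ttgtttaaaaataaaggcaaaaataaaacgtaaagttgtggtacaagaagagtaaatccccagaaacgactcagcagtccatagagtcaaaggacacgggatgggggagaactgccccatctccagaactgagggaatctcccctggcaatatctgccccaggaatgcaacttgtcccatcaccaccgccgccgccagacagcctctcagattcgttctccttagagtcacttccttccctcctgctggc
The Mag window, chr7:30914864-30915113 on the minus strand, belongs to one of the 3 RefSeq starts of the gene and held GTGGGNG 35 bases and the reverse complement of ACAAAG 126 bases before the start. Of the other Mag windows, one held ACAAAG alone and the other held neither.
Mag: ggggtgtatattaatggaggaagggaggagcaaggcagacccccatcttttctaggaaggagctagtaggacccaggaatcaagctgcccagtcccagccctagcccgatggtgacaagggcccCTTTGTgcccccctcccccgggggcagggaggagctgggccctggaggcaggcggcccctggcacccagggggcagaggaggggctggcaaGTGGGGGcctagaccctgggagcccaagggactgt
The Prx window, chr7:27499074-27499323 on the plus strand, held the reverse complement of GTGGGNG 107 bases before the start.
Prx: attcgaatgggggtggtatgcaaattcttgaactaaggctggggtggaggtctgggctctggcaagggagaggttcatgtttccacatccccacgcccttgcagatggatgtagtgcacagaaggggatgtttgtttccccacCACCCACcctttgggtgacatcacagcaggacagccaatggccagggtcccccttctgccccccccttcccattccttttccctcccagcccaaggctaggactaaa
Among 32851 RefSeq promoters of the same length, 28.1% held GTGGGNG, 16.5% held ACAAAG and 10.7% held ACAATG, so such matches are common. The matches in the windows shown did not overlap. They describe letters in these windows and say nothing of binding.

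The first comparison asked how the members differed between P3 and P0 in WT paws. Mbp and Mal rose, Mag lay higher in all P3 WT than in all P0 WT libraries without passing the threshold, and the fitted differences of Sox10, Egr2 and Pmp22 were the nearest to 0. With edgeR's quasi-likelihood test over all 21619 genes, 2 of the 8 members were called higher at an adjusted p under 0.05 and none lower. The background was 16.6% of all genes called, 8.49% higher and 8.07% lower. The median log2 fold change was 0.51 over the 8 members and -0.01 over all genes tested. In 3 of the 8 members P3 WT and P0 WT libraries did not overlap, always with P3 higher, where 8.96% of all genes did so and 7.73% lay lower on P3 without overlap.

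Mbp, the basic protein that holds the cytoplasmic faces of compact myelin together, gave the clearest change. It stood at 116.1, 105.5, 91.7, 87.2 and 59.0 CPM in P3 WT paws and at 53.0, 51.4, 43.7 and 43.1 CPM in P0 WT paws. The lowest P3 WT library, replicate 5, lay just above the highest P0 WT library. The fitted difference was 1.88-fold (log2 0.91, SE 0.23, 95% interval 0.41 to 1.42, edgeR adjusted p = 0.0187). The log2 difference was 0.97 in column block A alone (edgeR adjusted p = 1.65e-05, n = 3 and 3) and 1.02 in block B alone (edgeR adjusted p = 0.451, n = 2 and 1). The call was lost without P0 WT replicate 1 (log2 0.96, edgeR adjusted p = 0.0508) and without P0 WT replicate 3 (0.85, adjusted p = 0.0735). Reads are counted per gene, so the classic Mbp transcripts and the longer Golli transcripts of the same locus, which other cell types also make, were not separated.

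**Figure D1:**
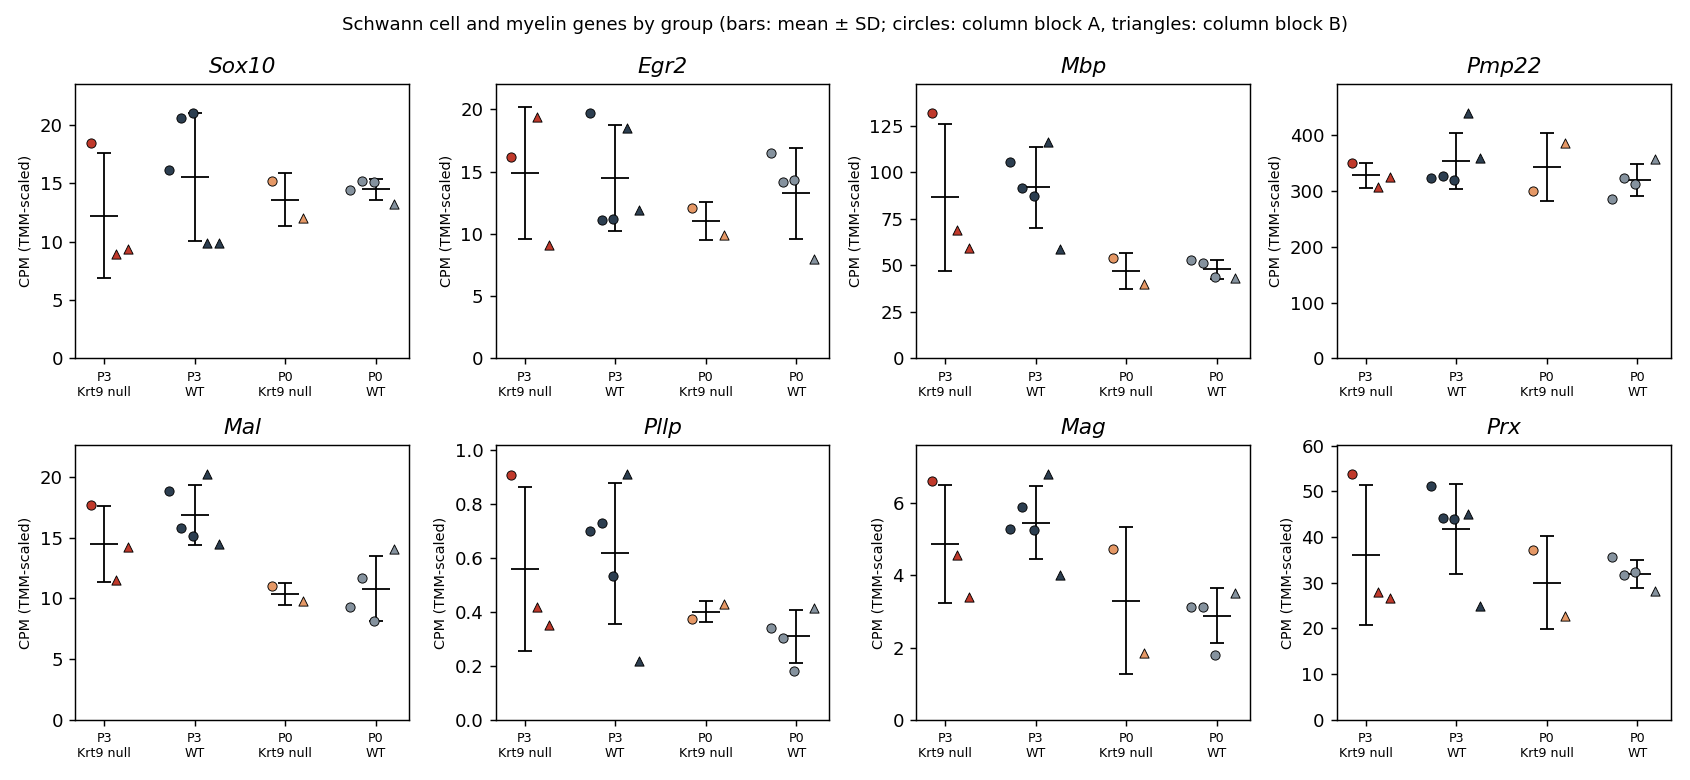
Level of each of the 8 genes in every library, as CPM after TMM scaling (y axis, linear, from 0), by group (x axis); horizontal bars with whiskers are the mean ± SD, circles are libraries of column block A and triangles of block B. Mbp runs from 59.0 to 116.1 CPM in P3 WT paws and from 43.1 to 53.0 CPM in P0 WT paws, while Sox10 on P3 splits by column block.

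Mal, a small 4-span proteolipid of membrane rafts that takes part in sorting proteins to myelin, was the other gene called. Its values were 20.2, 18.8, 15.8, 15.1 and 14.5 CPM in P3 WT paws and 9.27, 11.7, 8.15 and 14.1 CPM in P0 WT paws. The lowest P3 WT library lay just above P0 WT replicate 4, which was the highest of its group. The fitted difference was 1.59-fold (log2 0.67, SE 0.18, 95% interval 0.28 to 1.07, edgeR adjusted p = 0.0241). It was 0.80 in block A alone (adjusted p = 0.00212) and 0.30 in block B alone (adjusted p = 0.658). The call was lost without P0 WT replicate 1 (0.63, adjusted p = 0.0843), P0 WT replicate 3 (0.57, adjusted p = 0.103) or P3 WT replicate 2 (0.62, adjusted p = 0.0551), and without P0 WT replicate 4 the difference was 0.80 (adjusted p = 0.0106). Mal is also made by epithelial cells.

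Pllp encodes plasmolipin, a proteolipid of the same family as Mal, and was the rarest member at 5 to 33 reads per library. It stood at 0.908, 0.698, 0.730, 0.531 and 0.216 CPM in P3 WT paws and at 0.340, 0.301, 0.179 and 0.414 CPM in P0 WT paws. Replicate 5 of P3 WT lay among the P0 WT libraries and the other P3 WT libraries lay above them. The log2 difference of 0.95 had the largest point value and the widest interval of the 8 (-0.12 to 2.03, edgeR adjusted p = 0.217). In the annotation used here Pllp overlaps the antisense gene Gm45767 over 1128 exonic bases and Prx overlaps Gm15541 over 300. No source used here gives the strand setting of the counting, so reads of either pair may not be separated.

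Mag, an adhesion protein of the Schwann cell membrane next to the axon, stood at 6.79, 5.29, 5.90, 5.25 and 4.02 CPM in P3 WT paws and at 3.11, 3.12, 1.79 and 3.52 CPM in P0 WT paws. Every P3 WT library lay above every P0 WT library. The fitted difference was 1.83-fold (log2 0.88, SE 0.30, 95% interval 0.23 to 1.52) with an edgeR adjusted p of 0.0614. It lay below the threshold in 7 of 11 other settings, among them DESeq2 (adjusted p = 0.02), the column block as a term (0.91, adjusted p = 0.0292) and the replicate block of litter within day (1.01, limma adjusted p = 0.0426). Without 1 library it ran from 0.66 to 1.02 and was called in 4 of 14 refits, one of them that without P0 WT replicate 4 (1.02, edgeR adjusted p = 0.0464). Within the column blocks the difference was 1.06 (A, adjusted p = 0.00555) and 0.62 (B, adjusted p = 0.565).

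Prx, periaxin, is a scaffold that ties the Schwann cell's outer membrane to the basal lamina. It stood at 45.0, 51.1, 44.2, 43.9 and 25.0 CPM in P3 WT paws and at 35.7, 31.7, 32.3 and 28.1 CPM in P0 WT paws. P3 WT replicate 5 lay below all P0 WT libraries and the other 4 lay above them. The log2 difference was 0.36 (95% interval -0.14 to 0.85, edgeR adjusted p = 0.323), with 0.51 in block A alone (adjusted p = 0.00176) and 0.32 in block B alone (adjusted p = 0.721).

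Pmp22, a 4-span protein of compact peripheral myelin that fibroblasts and epithelia also make, was the most abundant member, at 8598 to 15989 reads per library. It stood at 439.8, 322.8, 326.7, 319.4 and 359.4 CPM in P3 WT paws and at 286.6, 323.4, 311.8 and 356.8 CPM in P0 WT paws. The groups overlapped, and the log2 difference was 0.16 (95% interval -0.10 to 0.43, edgeR adjusted p = 0.412). Its interval was the narrowest of the 8 and left out a difference as large as the one fitted for Mbp. Per kilobase of exon, Pmp22 averaged 150.2 CPM on P3 and 135.8 CPM on P0 in WT paws, and Mbp, the next highest, averaged 10.9 and 5.64 CPM. Prx averaged 7.5 and 5.73, Mal 6.08 and 3.89, Sox10 5.08 and 4.75, Egr2 4.26 and 3.9, Mag 1.34 and 0.708, and Pllp 0.296 and 0.148 CPM per kilobase, in the same order of days.

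The transcription factors gave no called difference between the days, and the share of Schwann cells in their reads was not tested. Egr2 stood at 18.5, 19.7, 11.1, 11.2 and 11.9 CPM in P3 WT paws and at 16.5, 14.2, 14.3 and 8.02 CPM in P0 WT paws, and the groups overlapped. Its log2 difference was 0.08 (95% interval -0.37 to 0.53, edgeR adjusted p = 0.846). It was -0.06 in block A alone and 0.92 in block B alone (adjusted p = 0.854 and 0.489).

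Sox10 stood at 9.90, 16.1, 20.6, 21.0 and 9.88 CPM in P3 WT paws and at 14.4, 15.2, 15.1 and 13.2 CPM in P0 WT paws. The P3 libraries split by column block in both genotypes: the 4 of block A held 16.1 to 21.0 CPM and the 4 of block B held 8.92 to 9.90 CPM. On P0 the blocks stood closer, at 14.4 to 15.2 CPM in block A and 12.0 to 13.2 CPM in block B. The fitted log2 difference of 0.10 in WT (95% interval -0.47 to 0.67, edgeR adjusted p = 0.845) thus pools 0.40 in block A (adjusted p = 0.0352) with -0.41 in block B (adjusted p = 0.474). The longest Sox10 transcript has the highest GC content of the 8 members, 61.8%, against a median of 49.4% over the 21130 tested genes with a value, and the part of GC content in the split was not tested.

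**Figure D2:**
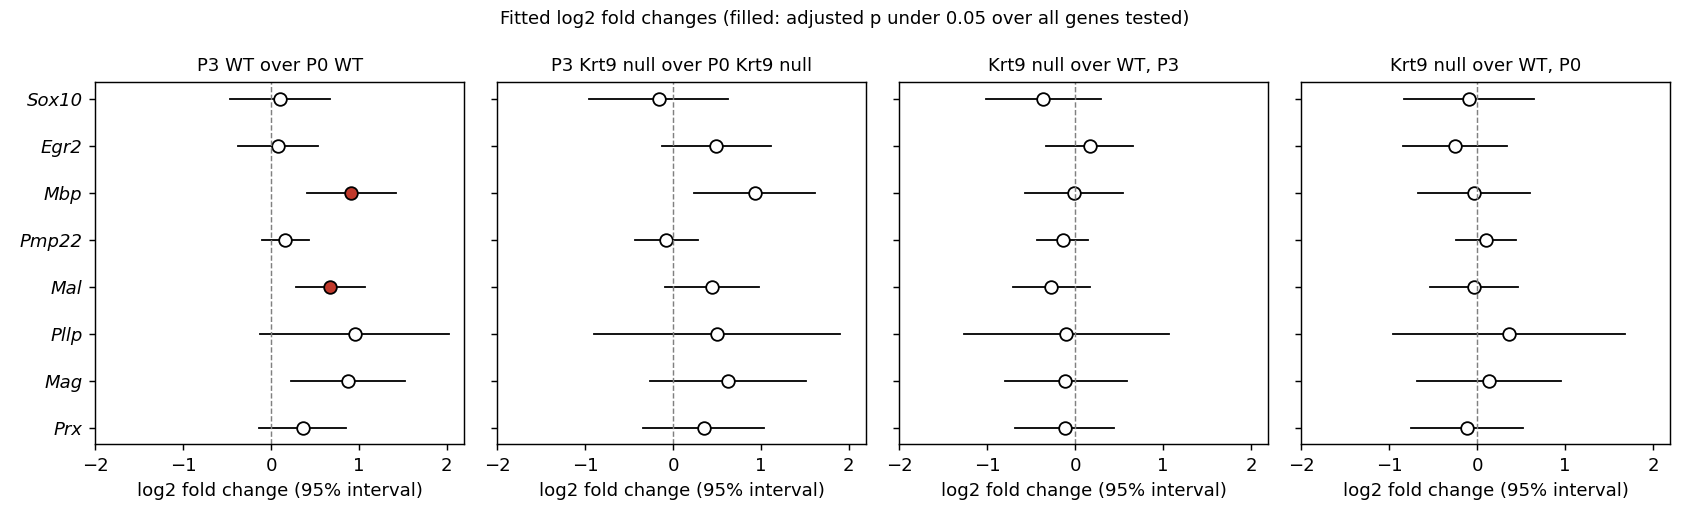
Fitted log2 fold change (x axis) of the 8 genes (rows) in the day comparison in WT and in Krt9 null paws and in the Krt9 null against WT comparison on P3 and on P0, with lines for the 95% interval; filled points have an edgeR adjusted p under 0.05 over all genes. Mbp (0.91) and Mal (0.67) in the WT day panel are the filled points, and every interval in the genotype panels includes 0.

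Krt9 null paws were compared between the same days, with 3 libraries on P3 and 2 on P0. Mbp stood at 68.8, 131.9 and 59.3 CPM in P3 Krt9 null paws and at 53.9 and 40.2 CPM in P0 Krt9 null paws, without overlap. The fitted log2 difference was 0.93 (SE 0.32, 95% interval 0.24 to 1.62, edgeR adjusted p = 0.184). Replicate 2 of P3, the Krt9 null library of block A on that day, was far above the others, and without it the difference was 0.46 (adjusted p = 0.218). edgeR called 0 of the 8 members in this comparison, where it called 0.768% of all genes, 0.338% as higher. Mbp was the 1 member with an unadjusted p under 0.05, and DESeq2 also called 0 members.

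Mal stood at 11.5, 17.7 and 14.2 CPM in P3 Krt9 null paws and at 11.0 and 9.75 CPM in P0 Krt9 null paws, again without overlap (log2 0.44, 95% interval -0.09 to 0.98, edgeR adjusted p = 0.416). Mbp and Mal were the 2 of 8 members whose groups did not overlap, with P3 higher, where 11.8% of all genes did so. The other fitted log2 differences were 0.63 for Mag, 0.50 for Pllp, 0.49 for Egr2, 0.35 for Prx, -0.08 for Pmp22 and -0.16 for Sox10, with adjusted p between 0.443 and 0.879. Without P3 replicate 2, that of Prx was -0.10 (adjusted p = 0.846), that of Pllp -0.08 and that of Mag 0.31. The value of Mag was 1.39 without P0 Krt9 null replicate 1 and 0.02 without P0 Krt9 null replicate 2, so it turned on which of the P0 libraries was kept.

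Krt9 null and WT paws of the same day were then compared, and their libraries also enter the day comparisons above. No member was called by edgeR on either day, and 0 of 8 had an unadjusted p under 0.05. DESeq2 called none of them either. All 8 members overlapped between the genotypes on both days. The background was 0.00463% of genes called on P3 and 0.00463% on P0, and 1.3% of all genes on P3 and 6.47% on P0 had all Krt9 null libraries above all WT libraries (below, 1.27% and 4.82%).

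On P3 the fitted log2 differences, Krt9 null over WT, lay between -0.36 and 0.17. Mbp averaged 86.7 ± 39.4 CPM in P3 Krt9 null paws (SD, n = 3) and 91.9 ± 21.6 CPM in P3 WT paws (SD, n = 5), a log2 difference of -0.01 (95% interval -0.57 to 0.54, edgeR adjusted p = 0.999). The interval leaves out a genotype difference as large as the day difference of 0.91 and spans smaller differences in both directions. The P3 value of Mbp was 0.48 in block A (1 Krt9 null library against 3 WT), -0.44 in block B (2 against 2) and -0.48 without P3 Krt9 null replicate 2 (adjusted p = 0.174). That library is the one Krt9 null library of block A on P3, so the block and the library cannot be told apart.

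Sox10 averaged 12.2 ± 5.36 CPM in P3 Krt9 null paws and 15.5 ± 5.46 CPM in P3 WT paws, which gave the lowest fitted value of the 8, -0.36 (95% interval -1.01 to 0.30, edgeR adjusted p = 0.928). Within the column blocks it was -0.06 in A and -0.11 in B, and 2 of the 3 Krt9 null libraries of P3 are of block B against 2 of the 5 WT libraries. Mal was at -0.27 (95% interval -0.71 to 0.17), Pmp22 at -0.14, Prx at -0.12, Mag at -0.11, Pllp at -0.10 and Egr2 at 0.17 (95% interval -0.33 to 0.66), and adjusted p ran from 0.906 to 0.999 over the 8.

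On P0 the fitted values lay between -0.25 for Egr2 and 0.36 for Pllp, with adjusted p from 0.909 to 0.990. Egr2 stood at 12.1 and 9.93 CPM in P0 Krt9 null paws and within 8.02 to 16.5 CPM in P0 WT paws. Mag was the least even gene, at 4.74 and 1.86 CPM in the 2 Krt9 null libraries, above and near the bottom of the WT values. Mbp was at -0.03 (95% interval -0.67 to 0.60). Prx and Sox10 stood at -0.11 and -0.09, Mal at -0.04, Pmp22 at 0.10 and Mag at 0.14.

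Whether the day difference itself differed between the genotypes was tested as an interaction. edgeR called 0 members and 0 of all genes (0.0%), while 1644 genes, but 0 members, had an unadjusted p under 0.05. By DESeq2 the call count was 87 genes and 0 members, and with litter within day as the replicate block it was 3 genes and 0 members. The interaction was 0.02 for Mbp (SE 0.39, 95% interval -0.83 to 0.86) and ran from -0.46 for Pllp to 0.41 for Egr2, with edgeR adjusted p from 0.844 to 1.

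To describe the myelin genes per unit of Schwann cell lineage transcript, the log2 ratio of each member to Sox10 was taken in every library. Mbp over Sox10 averaged 2.61 ± 0.59 in P3 WT paws (SD, n = 5) and 1.72 ± 0.14 in P0 WT paws (SD, n = 4), and the ranges, 2.06 to 3.55 and 1.53 to 1.88, did not overlap. In Krt9 null paws it averaged 2.82 ± 0.14 on P3 (n = 3) and 1.79 ± 0.06 on P0 (n = 2), also without overlap. The difference between the days was 0.89 in WT (0.59 in block A, 1.36 in block B) and 1.03 in Krt9 null paws (1.01 in A, 1.06 in B). P3 Krt9 null replicate 2, which stood apart in Mbp itself, did not stand apart in this ratio, since the 3 libraries lay between 2.67 and 2.95.

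For the other ratios the WT groups overlapped, with day differences of 0.92 for Mag, 0.89 for Pllp, 0.64 for Mal, 0.33 for Prx, 0.12 for Pmp22 and 0.11 for Egr2. In Krt9 null paws the ratios of Mag (0.88), Mal (0.68), Egr2 (0.60), Pllp (0.58) and Prx (0.46) did not overlap between P3 and P0 and that of Pmp22 (0.17) did. Over all other tested genes, 2.63% in WT and 8.48% in Krt9 null paws had a ratio to Sox10 that was higher in all P3 than in all P0 libraries. The ratios share 1 denominator and are not separate observations. Those of Pllp depend on the pseudocount: with 0.5 CPM added, its WT day difference was 0.42 and its Krt9 null day difference 0.41. Krt9 null minus WT differences of the ratios ran from 0.10 to 0.37 on P3 and from -0.12 to 0.54 on P0, all with overlap; the 0.54 is that of Pllp and was 0.26 with 0.5 CPM added. These ratios carry the column block split of Sox10 on P3, and melanocytes also express Sox10.

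**Figure D3:**
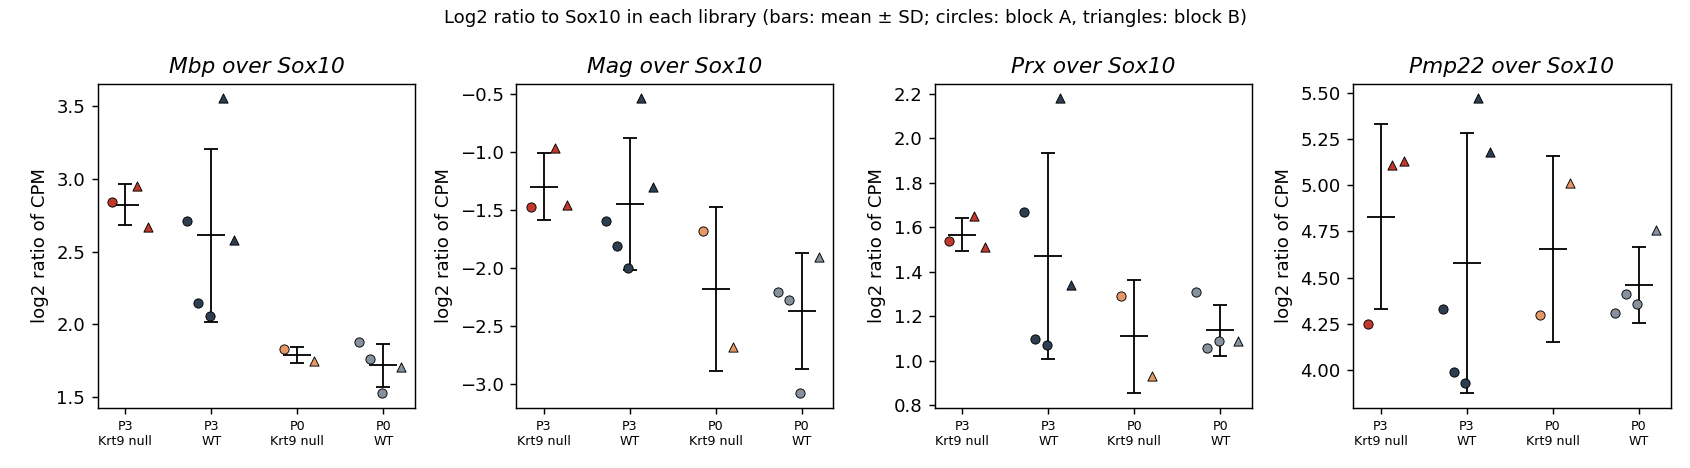
Log2 ratio of Mbp, Mag, Prx and Pmp22 to Sox10 in each library (y axis) by group (x axis), with the mean ± SD; circles are column block A and triangles block B. Mbp over Sox10 lies between 2.06 and 3.55 in P3 WT paws and between 1.53 and 1.88 in P0 WT paws, and for Pmp22 the block B libraries of P3 lie above those of block A.

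The members were also compared by how they varied among libraries of the same group, as deviations of log2(CPM + 1) from the group mean over the 14 libraries. The 28 pairs had Pearson r between -0.43 and 0.94 with a median of 0.45, and 22 were above 0. Mbp and Prx were the closest pair (r = 0.94, Spearman's rho = 0.94), and r was also 0.94 when the column block was taken out. Mbp with Pllp gave 0.86, Mbp with Mag 0.75 and Mag with Prx 0.71. P3 Krt9 null replicate 2 was the highest of its group in 7 of the members, Egr2 being the exception, and P3 WT replicate 5 the lowest of its group in Mbp, Pllp, Mag, Prx, Mal and Sox10.

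Each of the pairs below 0 included Egr2 or Pmp22. Egr2 gave 0.55 with Mbp, 0.46 with Prx and -0.13 with Pmp22. Sox10 with Prx gave 0.72 and with Mbp 0.56, and these became 0.17 and 0.11 with the column block taken out. Pmp22 with Mbp gave 0.08, and 0.75 with the block taken out. Sox10 with Egr2 gave -0.02, and -0.65 with the block taken out. The points of each pair share library, depth and column block, and these correlations are descriptions of 14 libraries in 4 groups.

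**Figure D4:**
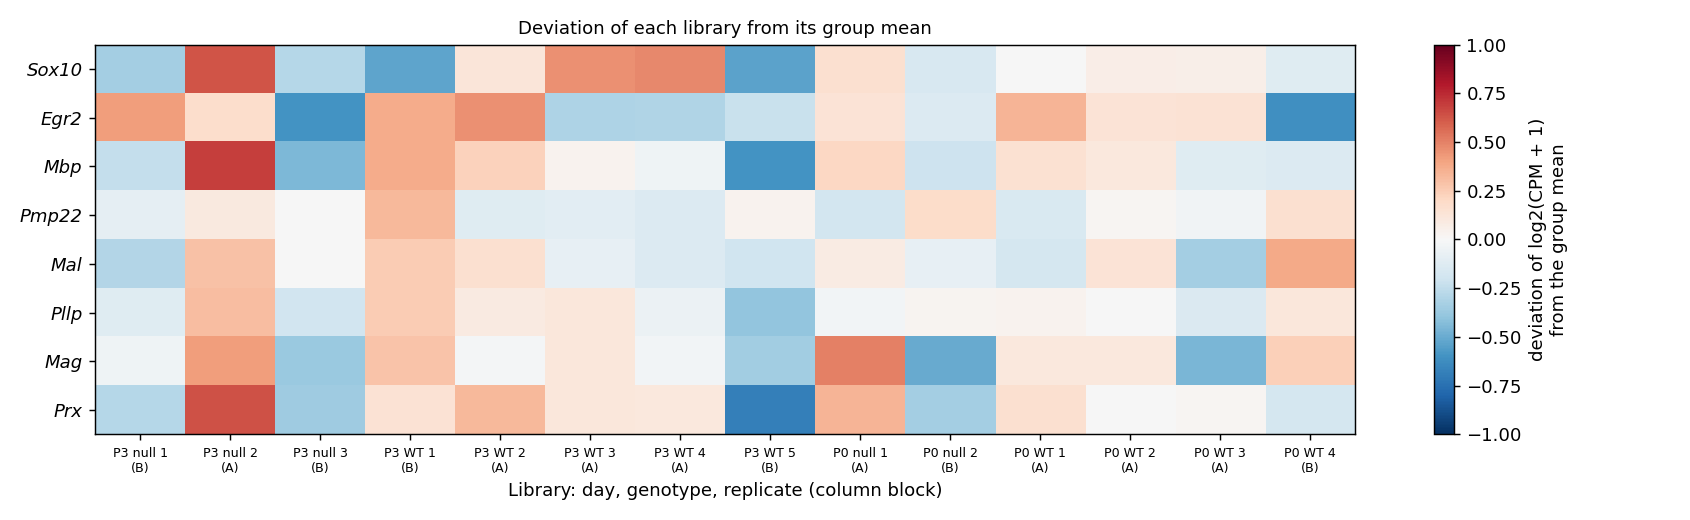
Deviation of log2(CPM + 1) from the group mean (colour, red above and blue below) for the 8 genes (rows) in the 14 libraries (columns, with the column block in brackets). P3 Krt9 null replicate 2 is red in all rows and P3 WT replicate 5 is blue in all rows but Pmp22.

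Among 15910 other genes, those whose deviations were most like the mean standardised deviation of the 8 members included Hmcn2 (r = 0.93 over 14 libraries), Ntrk3 (0.93), Pacsin1 (0.92), Prss57 (0.92), Hcar1 (0.92), Kif21b (0.92), Gjc3 (0.91), Ccdc194 (0.90) and Col28a1 (0.90). Gjc3 encodes a connexin of myelinating glia and Col28a1 a collagen of the Schwann cell basal lamina. Prss57 and Hcar1 averaged 0.157 and 0.808 CPM over the 14 libraries. All were picked by the height of r among the 15910, and which cells make them was not tested.

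Other genes of myelination were counted in fixed lists, again for P3 against P0 in WT paws, where 8.49% of all genes were called higher and 8.07% lower. Of 16 further myelin proteins, all tested, 5 rose and none fell (median log2 0.39). Gldn, which encodes the gliomedin that gathers sodium channels at nodes, rose 3.27-fold (log2 1.71, SE 0.31, edgeR adjusted p = 0.00319), and Cnp, an enzyme of non-compact myelin, rose 1.71-fold (0.78, SE 0.16, adjusted p = 0.00652). Pmp2 and Fxyd3, named after their values were seen, were also called. The log2 difference of Fxyd3 was 0.36 (edgeR adjusted p = 0.0384), and the share of Schwann cells in its reads was not tested. Pmp2, a fatty acid-binding protein of myelin, stood between 0.216 and 0.770 CPM in P3 WT paws and between 0 and 0.103 CPM in P0 WT paws.

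Of 10 enzymes of myelin lipids, 3 rose and 1 fell (median 0.10), beside 8.49% of all genes called higher and 8.07% lower. Fa2h, which makes the 2-hydroxy fatty acids of galactolipids, rose 6.81-fold (log2 2.77, SE 0.54, edgeR adjusted p = 0.00709) and Gal3st1, the sulfatide-forming sulfotransferase, 2.93-fold (1.55, SE 0.32, adjusted p = 0.00649). Ugt8a, which makes galactosylceramide, was the third (1.06, adjusted p = 0.0489), named after its value was seen. Degs2, a sphingolipid hydroxylase prominent in epithelia, fell to 6.91 ± 0.84 CPM in P3 WT paws, against 28.1 ± 13.8 CPM in P0 WT paws (log2 -2.02, SE 0.42, adjusted p = 0.00878), with -2.31 in block A alone and -0.17 in block B alone (adjusted p = 0.815). Fa2h is likewise made in skin, and the share of Schwann cells in its reads was not tested.

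Of 20 regulators of myelination, 2 rose and 7 fell (median -0.24), beside 8.49% of all genes called higher and 8.07% lower. Nrg1, whose type III form on axons drives myelin thickness and which other tissues of the limb also make, fell to 1.58 ± 0.222 CPM in P3 WT paws, against 9.13 ± 5.19 CPM in P0 WT paws (log2 -2.52, SE 0.30, edgeR adjusted p = 0.000411). Adgrg6, the adhesion receptor Schwann cells need to start myelinating, fell to 21.6 ± 2.9 CPM, against 34.4 ± 3.47 CPM on P0 (-0.68, SE 0.12, adjusted p = 0.00303). Hdac1, a histone deacetylase present in most cells, rose 1.68-fold (0.75, SE 0.10, adjusted p = 0.000682). Of 20 genes of immature, non-myelinating or repair Schwann cells, 1 rose and 2 fell (median 0.06), a share near the 16.6% of all genes called. L1cam was at 0.52 (edgeR adjusted p = 0.0279), Ncam1 at -0.82 (adjusted p = 0.0144) and Jun at -0.63 (adjusted p = 0.0268). All 3 calls were lost without P0 WT replicate 2 (L1cam 0.54, Ncam1 -0.73, Jun -0.45), and Jun was at 0.12 in block B alone.

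**Figure D5:**
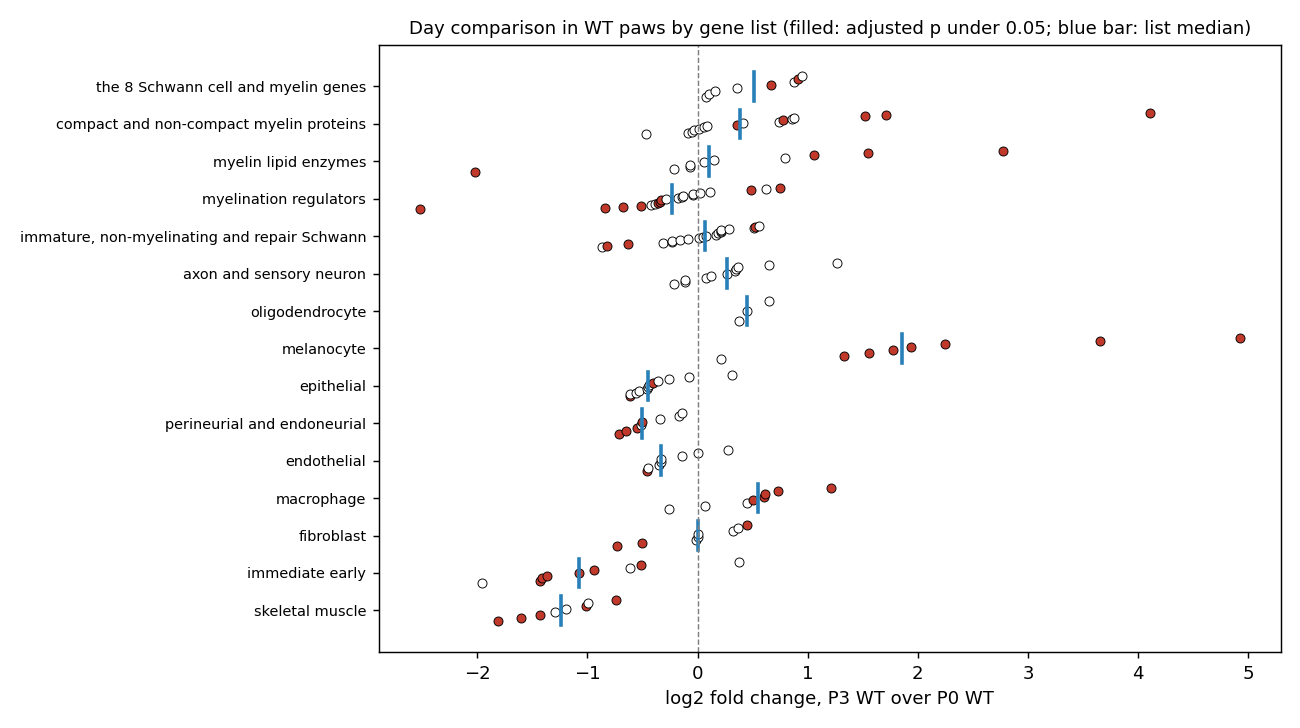
Fitted log2 fold change, P3 WT over P0 WT (x axis), of the 8 genes (top row) and of each tested gene of 14 lists (other rows); filled points have an edgeR adjusted p under 0.05 over all genes, and blue bars mark list medians. The 8 genes have a median of 0.51, melanocyte genes of 1.85 and skeletal muscle genes of -1.24.

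Several lists of other cells also held genes called between the days, beside the 16.6% of all genes called, and their part in the results above was not tested. Of 8 melanocyte genes, a lineage that shares Sox10 with Schwann cells, 7 rose (median 1.85), led by Tyr (log2 1.94, edgeR adjusted p = 0.000332), Tyrp1 (3.65, adjusted p = 0.000771) and Dct (1.56, adjusted p = 0.00113), and their summed level was 85.0 to 143.1 CPM in P3 WT and 36.1 to 54.2 CPM in P0 WT paws. Of 8 macrophage genes 5 rose (median 0.55), with Adgre1 at 1.21, Mrc1 at 0.61 and Csf1r at 0.73. Of 8 skeletal muscle genes 5 fell (median -1.24), with Myh3 at -1.81, Tnnt3 at -1.01 and Ckm at -1.43. Of 9 immediate early genes 6 fell (median -1.08), with Junb at -0.94, Atf3 at -1.41 and Ier2 at -0.51. Among 8 perineurial and endoneurial genes 4 fell (median -0.51; Pdgfra -0.50, Osr2 -0.71, Slc2a1 -0.65), among 12 epithelial genes 2 fell (median -0.45; Cdh1 -0.61, Trp63 -0.40), and among 8 endothelial genes 1 fell (Pecam1 -0.46). Of 8 fibroblast genes 1 rose (Thy1 0.45) and 2 fell (Fbln1 -0.73, Pdgfra). Summed macrophage genes stood at 546.8 to 644.2 CPM in P3 WT and 308.0 to 473.0 CPM in P0 WT paws, and summed muscle genes at 1719.5 to 3235.6 and 4092.9 to 12120.8 CPM on the same days. The summed perineurial and endoneurial genes (505.2 to 636.4 CPM in P3 WT, 698.3 to 828.6 CPM in P0 WT) and endothelial genes (479.0 to 612.3 CPM in P3 WT, 637.8 to 708.4 CPM in P0 WT) did not overlap between the days either. Those of the epithelial (16979.0 to 24342.3 CPM in P3 WT, 17007.3 to 36914.7 CPM in P0 WT), immediate early (348.8 to 669.9 CPM in P3 WT, 339.8 to 1013.1 CPM in P0 WT) and fibroblast lists (34791.7 to 80108.0 CPM in P3 WT, 40178.5 to 67364.7 CPM in P0 WT) overlapped. Junb, Ier2, Cdh1 and Trp63 had the other sign in block B alone (0.29, 0.32, 0.42 and 0.14), and Atf3 was at -1.83 in block A and -0.08 in block B. Over all lists, 32 called genes met the naming rule given with the processing, and 17 of them were called in all 14 refits without 1 library. Those of the myelin protein, lipid enzyme, regulator and melanocyte lists that met the rule are among the 17. Pmp2, Fxyd3 and Ugt8a, named outside the rule, are not among the 32. The least stable calls were Trp63 (2 of 14 refits), Cdh1 and Pecam1 (7 of 14 each), each lost without P0 WT replicates 1, 2 or 3 and P3 WT replicate 2, among others.

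Oligodendrocytes are among the other cells that make Mbp, Mag, Mal and Pllp. Some of their defining genes were at or near 0. Opalin had no read in any library. Olig2 stood at 0 in every group but P0 WT, where it reached 0.143 CPM in 1 library. Mog and Mobp stayed at or below 0.246 CPM in all 14. Hapln2 and Ermn reached 0.279 and 0.44 CPM, within the range of Pllp over the 14 libraries, 0.179 to 0.908 CPM. Of 8 oligodendrocyte genes 3 could be tested and none was called (median 0.45, 3 of 3 above 0). The genes of the list summed to 4.20 to 6.82 CPM in P3 WT and 2.72 to 5.41 CPM in P0 WT paws. The highest of them were Cldn11 (0.65, edgeR adjusted p = 0.166) and Myrf (0.45, adjusted p = 0.415), which other cells also make. Cldn11 was called in block A alone (1.03, adjusted p = 0.0155) and stood at -0.13 in block B alone. Axon and sensory neuron genes gave no call among the 11 of 14 tested. Their median log2 difference was 0.27, and 8 of the 11 lay above 0. Uchl1 and Stmn2, the highest of them in CPM, were at -0.21 (edgeR adjusted p = 0.317) and 0.08 (adjusted p = 0.804). Scn10a, a sodium channel gene of sensory neuron bodies, stayed at or below 0.176 CPM. The summed axon list stood at 53.4 to 64.1 CPM in P3 WT and 55.5 to 59.9 CPM in P0 WT paws.

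In the genotype comparisons and the interaction no gene of the 14 lists was called. The epithelial list, whose summed level ran from 17906.4 to 41765.7 CPM in P3 Krt9 null and from 16979.0 to 24342.3 CPM in P3 WT paws, had a median log2 difference of 0.49 on P3 with all 12 genes above 0, and of -0.38 on P0 with 1 of 12 above 0. On P3 the immediate early list was at 0.51 (9 of 9 above 0), the endothelial list at -0.40 and the skeletal muscle list at -0.39 (0 of 8 above 0 each). On P0 the same lists were at -0.36 (1 of 9 above 0), 0.06 (5 of 8) and -0.72 (0 of 8). The members had a median of -0.11 on P3 with 1 of 8 above 0, beside -0.01 over all genes. The part of tissue make-up in the members' values was not tested.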

How the data were processed

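Total RNA of whole paws was depleted of ribosomal RNA and sequenced in 14 libraries. The authors deposited raw read counts per gene, without normalization, and the build GRCm39 and, among the tools, STAR (version 2.7.10a) and featureCounts are listed per the submitters' processing notes. No source used here states the filters or the strand setting. Symbols were matched for 52073 of 56691 IDs in a GENCODE annotation of GRCm38, used for names, exon lengths, GC content and overlaps and not for coordinates of the counts.

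Genes were kept by filterByExpr (21619), TMM-scaled, and tested by the robust quasi-likelihood method of edgeR 4.0.16 in R 4.3.3, with the 4 groups and labelled sex in 1 fit of 14 libraries and 9 residual degrees of freedom. Benjamini-Hochberg adjustment ran over all genes tested, with calls at an adjusted p under 0.05. CPM are TMM-scaled, and per kilobase values divide by the union of exons. SE and 95% intervals come from the fitted F statistic. The fit was also run on simulated counts for the WT day comparison. These were drawn independently, without column block or litter, so the run cannot show how the fit handles either. Descriptions and plots were made in Python 3.11.15 (pandas 2.3.3, matplotlib 3.10.9).

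Same-group libraries differed beyond sampling noise. The labels' litter numbers pair libraries within a day, and residuals within such litters correlated at 0.555. The pairs are P3 WT replicates 2 and 3, and replicate 1 of both genotypes on P0. All of these libraries are labelled male and are of column block A, so litter and block cannot be told apart in the 0.555. Across days the correlation was -0.054, and whether equal numbers on both days mean 1 litter is not stated. The main fit has no litter term, and litter was a random block in limma 3.58.1 as an alternative.

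Named genes were the 8 members, Krt9, up to 3 called genes of each list with the smallest adjusted p in the WT day comparison or otherwise the 2 highest in CPM, and the 10 genes most like the members. Some genes that this rule reaches are not reported here. The lists, like the members, were chosen with earlier results of these data known. Promoter motifs were searched on both strands of the 250 bases before each RefSeq start. Alternatives were DESeq2 1.42.0, limma voom, other scaling and filters (at least 1 count, or 1 CPM in 4 libraries), no sex term, only the groups compared, column block as a term or alone, and leaving out each library.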

Additional observations from a re-analysis of the deposited data

Results flagged for a closer look

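Within groups of at least 4 libraries, 16 checks of the 8 genes were made for a library far from the rest, and 1 was met. Prx stood at 25.0 CPM in P3 WT replicate 5, the lowest of its group, with a gap to the next library of 0.723 of the group's range. Chance alone marks about 1 in 20 such groups. Mbp, Pllp and Mag were also lowest in this library among the P3 WT paws. Egr2 in P0 WT replicate 4 also stood apart, at 8.02 CPM against 16.5, 14.2 and 14.3 CPM in the other P0 WT libraries. The check did not mark it.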

How the results depend on the processing

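The calls of Mbp and Mal in the WT day comparison held under all 11 alternatives other than leaving out single libraries or taking a column block alone. Their log2 values there were 0.90 to 1.03 and 0.64 to 0.78. Among these alternatives, the fit of only the groups compared used WT libraries alone. Leaving out single libraries gave 0.84 to 1.05 for Mbp (called in 12 of 14 refits) and 0.57 to 0.80 for Mal (11 of 14), and 0 to 3 members called. In column block A alone both were called (0.97 and 0.80) and in block B alone neither was (1.02 and 0.30). Leaving out P0 WT replicate 1 or 3 gave 0 members called and P3 WT replicate 2 gave 1. With no filter, Mbp was also called in Krt9 null paws (0.95), 1 member. Limits are the 2 to 5 libraries per group, the column block and, for Pllp, the depth.

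Counts of genes called moved with the setting, and the cause was not tested. For the WT day comparison they were 3581 as reported, 5570 with the block term and 1629 to 4332 without 1 library. For the Krt9 null day comparison they were 166 as reported, 1692 with no filter, 41 with no sex term, 1070 with the block term, 1 with only the groups compared, 1090 by DESeq2 and 0 to 645 without 1 library. For genotype on P3 they were 1 as reported, 631 with no filter, 7 with the block term, 26 by DESeq2 and 1 to 200 without 1 library. For genotype on P0 they were 1 as reported, 182 with no filter, 9 by DESeq2, 2 with the litter block and 1 to 3 without 1 library. For the interaction they were 0 as reported, 1 with library size only, 617 with no filter, 7 with the block term, 87 by DESeq2, 3 with the litter block and 0 to 47 without 1 library.

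Of the 8 members and Krt9, no value that changed sign here was a call. For genotype on P0, library size alone gave 0.02 for Sox10, 0.08 for Mbp, 0.06 for Mal and 0.00 for Prx, and the block term 0.07 for Sox10 and 0.05 for Mbp. The litter block gave 0.04 for Mal on P0 and -0.00 for Sox10 in the WT day comparison, and it changed no call of a member but that of Mag. Only the groups compared gave 0.08 for Pllp on P3. The interaction of Mbp was -0.14 with library size only, -0.06 with no sex term, the block term or limma voom, -0.07 with litter within day and -0.08 with litter across days as the block. Without 1 library the ranges that crossed 0 were, for genotype on P0, -0.34 to 0.12 for Sox10, -0.19 to 0.11 for Mbp, -0.06 to 0.24 for Pmp22, -0.23 to 0.14 for Mal, -0.65 to 0.73 for Mag, -0.42 to 0.15 for Prx and -0.09 to 0.45 for Krt9. On P3 they were -0.02 to 0.36 for Egr2, -0.48 to 0.26 for Mbp, -0.62 to 0.23 for Pllp, -0.43 to 0.06 for Mag and -0.56 to 0.18 for Prx. In the WT day comparison they were -0.07 to 0.25 for Sox10 and -0.05 to 0.25 for Egr2. In the Krt9 null day comparison they were -0.57 to 0.08 for Sox10, -0.22 to 0.09 for Pmp22, -0.08 to 0.78 for Pllp and -0.10 to 0.65 for Prx. For the interaction they were -0.43 to 0.29 for Mbp, -0.90 to 0.47 for Mag and -0.44 to 0.30 for Prx. A filter of 1 CPM in 4 libraries left no value for Pllp, and the interaction has no fit of only the groups compared.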
